A study of Mus musculus with 3 samples.

Results

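Hox genes encode homeodomain transcription factors that lie in 4 clusters in the mouse genome, and chromatin accessibility at 38 of them was examined by ATAC-seq in sorted cells of skin squamous cell carcinomas. A deposited region was assigned to a Hox gene when that gene's body was the nearest protein-coding gene body in the mm10 build, at most 50 kb from the region's midpoint. This gave 82 of 95842 regions, which fell to 33 of the 38 genes. No region in the table used here was assigned to Hoxa6, Hoxa11, Hoxd4, Hoxd10 or Hoxd12.

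The tumours were induced with DMBA, a mutagen, and TPA, a tumour promoter, in mice of mixed background. All 3 libraries came from mice carrying K14Cre, a Cre recombinase driven by the keratin 14 promoter of basal keratinocytes, and RYFP, a Cre-activated yellow fluorescent reporter. The control genotype was K14Cre;RYFP, and the other genotype, K14Cre;Fat1fl/fl,RYFP, also carried conditional alleles of the protocadherin gene Fat1. Cells were sorted by Epcam, an epithelial adhesion protein, into control Epcam+, Fat1 cKO Epcam+ and Fat1 cKO Epcam- libraries, with 1 library in each group, and the titles of both Fat1 cKO libraries share the code F3E13-14, which the labels do not explain. The sources used here do not give the age of the mice. Without replicates no test between conditions is possible, and every interval below covers counting error only.

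Hox clusters are read in order. Genes at one end pattern anterior structures such as the hindbrain, genes at the other end pattern posterior trunk, limb and genital structures, and members at the same place in different clusters are paralogs with the same number. In skin, Hox genes are known as marks of body position in fibroblasts, and Hoxc13 is known for its part in hair and nail formation. Below, paralog groups 1 to 3 are called anterior, 4 to 8 central and 9 to 13 posterior.

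The libraries held 4335304 (control Epcam+), 3812880 (Fat1 cKO Epcam+) and 5485317 (Fat1 cKO Epcam-) nuclear counts, and CPM is counts per 1000000 after scaling by edgeR's TMM method. The authors' peak calls and their counts did not match for 2 of the columns. In the 16 Hox regions called as a peak only in the control Epcam+ library, the median count was 13.5 in its own column and 30.0 in the Fat1 cKO Epcam- column. In the 7 called only in the Fat1 cKO Epcam- library, it was 18.0 in its own column and 25.0 in the control Epcam+ column. The whole table showed the same, at 9.0 against 29.0 counts over 18422 regions and 10.0 against 25.0 counts over 10758 regions. The names of the libraries are therefore those of the count columns, and each library is written as "labelled". If the names of these 2 columns were exchanged, the first comparison would put Epcam+ cells over Epcam- cells of Fat1-deleted tumours, the second would put control over Fat1-deleted Epcam+ cells, and the other one would turn round. Regions of Fat1 summed to 158, 191 and 249 CPM in the order above, and which exons the allele removes is not given, so they check no label. Regions of Epcam summed to 67.7, 224 and 132 CPM. The labelled control Epcam+ library, sorted as epithelial, had the lowest of these. Summed CPM of 10 keratinocyte markers was 456, 1316 and 1190 in the same order, and that of 10 fibroblast markers 680.1, 410 and 270.2, so that the same library was lowest in the first list and highest in the second. Of the immune, endothelial and melanocyte markers 7 of 10, 7 of 8 and 6 of 7 had a region, and their summed CPM spanned 119 to 144, 248 to 272 and 195 to 261 over the libraries. No marker with a region was at 0 in any library. The part of these marker levels in the Hox results was not tested.

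For each cluster, the promoter window is shown whose overlapping region had the highest mean CPM over the 3 libraries. Also shown are the 4 further windows whose regions differed most between libraries. The first choice depends on the mean. In the labelled control Epcam+ library alone, Hoxa3 exceeded Hoxa5 (33.7 against 29.9 CPM) and Hoxd1 exceeded Hoxd11 (8.21 against 6.21 CPM). RefSeq windows of the GRCm38.p6 build (the same build as mm10) were available for 22 of the 38 genes, 24 windows in all, and 11 of the windows overlapped a region. Each line gives the 250 bases before the transcription start, 5′ to 3′ on the gene's strand, and capitals mark matches on either strand to TGATNNAT, a composite motif of Pbx and Hox proteins, or TAATTA, a homeodomain core motif.
Hoxa5 promoter, chr6:52204588-52204837, minus strand: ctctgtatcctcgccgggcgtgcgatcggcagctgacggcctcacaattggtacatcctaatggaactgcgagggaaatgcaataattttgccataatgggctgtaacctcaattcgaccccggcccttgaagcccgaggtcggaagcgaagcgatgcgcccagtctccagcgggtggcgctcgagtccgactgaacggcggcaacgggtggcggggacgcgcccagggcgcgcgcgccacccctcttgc
Hoxb4 promoter, chr11:96318017-96318266, plus strand: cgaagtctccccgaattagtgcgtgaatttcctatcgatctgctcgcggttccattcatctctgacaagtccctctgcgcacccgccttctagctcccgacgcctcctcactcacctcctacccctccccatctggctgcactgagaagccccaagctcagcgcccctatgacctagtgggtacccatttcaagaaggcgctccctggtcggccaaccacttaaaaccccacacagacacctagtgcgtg
Hoxc4 promoter, chr15:103034145-103034394, plus strand: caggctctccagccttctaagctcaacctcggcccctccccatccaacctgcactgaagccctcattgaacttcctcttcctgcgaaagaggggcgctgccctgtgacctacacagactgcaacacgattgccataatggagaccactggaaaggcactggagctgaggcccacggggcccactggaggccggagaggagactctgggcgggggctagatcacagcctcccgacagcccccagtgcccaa
Hoxd11 promoter, chr2:74682073-74682322, plus strand: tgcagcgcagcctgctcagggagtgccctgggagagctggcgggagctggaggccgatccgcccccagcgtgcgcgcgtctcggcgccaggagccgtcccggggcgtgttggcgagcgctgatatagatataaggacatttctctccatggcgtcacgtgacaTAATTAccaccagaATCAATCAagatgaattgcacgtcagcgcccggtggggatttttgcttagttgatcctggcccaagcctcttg
Hoxd9 promoter, chr2:74697513-74697762, plus strand: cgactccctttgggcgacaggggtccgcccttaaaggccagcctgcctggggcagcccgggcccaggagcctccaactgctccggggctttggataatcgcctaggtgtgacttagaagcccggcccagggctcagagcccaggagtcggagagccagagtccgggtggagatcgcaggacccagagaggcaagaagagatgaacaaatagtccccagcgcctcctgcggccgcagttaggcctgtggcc
Hoxa6 promoter, chr6:52208673-52208922, minus strand: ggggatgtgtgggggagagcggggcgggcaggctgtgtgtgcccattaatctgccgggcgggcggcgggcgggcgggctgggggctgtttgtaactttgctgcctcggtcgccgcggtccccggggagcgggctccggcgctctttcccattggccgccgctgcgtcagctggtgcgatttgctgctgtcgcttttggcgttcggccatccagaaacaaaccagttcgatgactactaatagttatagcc
Hoxd1 promoter, chr2:74762730-74762979, plus strand: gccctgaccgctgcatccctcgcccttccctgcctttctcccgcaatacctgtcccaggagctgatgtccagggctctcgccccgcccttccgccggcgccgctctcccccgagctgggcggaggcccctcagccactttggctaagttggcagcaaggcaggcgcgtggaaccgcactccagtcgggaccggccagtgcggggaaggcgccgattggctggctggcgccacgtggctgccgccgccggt
Hoxa3 promoter, chr6:52213068-52213317, minus strand: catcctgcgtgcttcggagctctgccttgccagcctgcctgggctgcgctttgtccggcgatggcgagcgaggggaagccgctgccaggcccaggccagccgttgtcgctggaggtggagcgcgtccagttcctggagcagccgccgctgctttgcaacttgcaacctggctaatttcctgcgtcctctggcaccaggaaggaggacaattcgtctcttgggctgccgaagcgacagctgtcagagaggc

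Only the Hoxd11 window among these 8 held a match, with TAATTA 87 bases and ATCAATCA, the reverse strand of a TGATNNAT match, 73 bases before the start. Over the 24 Hox windows, 4 held TGATNNAT (16.7%) and 2 held TAATTA (8.33%), against 7.68% and 4.84% of 32851 windows of the same length. Another motif, TGANTCA of the AP-1 factors, was in 1 of 24 (4.17%) against 6.75%. CpG dinucleotides had a median of 12.5 per Hox window and 6.0 over all windows. The Hoxa6 window shows a limit of the assignment: its region has its midpoint inside the longer Hoxa3 body and is counted for Hoxa3.

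The Hoxd genes were least accessible in the labelled Fat1 cKO Epcam+ library. The 11 regions of the cluster, on chromosome 2 between Hoxd13 (gene start 74668225) and Hoxd1 (gene end 74765142), summed to 353 counts in the labelled control Epcam+ library, 104 in the labelled Fat1 cKO Epcam+ library and 473 in the labelled Fat1 cKO Epcam- library. These are 78.3, 28.4 and 86.0 CPM, so that the cluster was 2.73-fold lower in the labelled Fat1 cKO Epcam+ than in the labelled control Epcam+ library (log2 ratio -1.45, 95% interval -1.79 to -1.14). The labelled Fat1 cKO Epcam- library was 2.99-fold above the labelled Fat1 cKO Epcam+ library (1.58, 1.29 to 1.92) and level with the labelled control Epcam+ library within counting error (0.13, -0.07 to 0.34). The labelled Fat1 cKO Epcam+ library had the lowest CPM for all 6 Hoxd genes with a region and in 9 of the 11 regions, and it had 1 called peak there against 8 and 7. In a sorted population, fewer cells with open chromatin at a gene and less open chromatin per cell cannot be told apart.

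Hoxd8, a central member active in the trunk, had the highest CPM per kb of the Hoxd genes by the mean of the 3 libraries. It also differed most among them in both comparisons with the labelled Fat1 cKO Epcam+ library. Its 2 regions held 85, 14 and 110 counts in the libraries in the order above, or 14.0, 2.84 and 14.8 CPM per kb. Hoxd11 stood above Hoxd8 in the labelled Fat1 cKO Epcam+ (4.63 CPM per kb) and labelled Fat1 cKO Epcam- (15.7 CPM per kb) libraries. In the labelled Fat1 cKO Epcam+ library Hoxd3 and Hoxd1 did too. For Hoxd8, the labelled Fat1 cKO Epcam+ library stood far below both others, which were close to each other. Its level was 4.52-fold lower than that of the labelled control Epcam+ library (log2 ratio -2.18, 95% interval -3.23 to -1.48), and the labelled Fat1 cKO Epcam- library was 4.79-fold above it (2.26, 1.58 to 3.30). Most of these counts, 77, 13 and 97, lay in one region within the gene body, 74704693 to 74705810.

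Anterior Hoxd genes were also lowest in the labelled Fat1 cKO Epcam+ library. Hoxd3, a paralog of Hoxa3, had 156, 46 and 133 counts in 4 regions, and Hoxd1, which acts in sensory neurons, had 37, 11 and 52 counts in 1 region that covers its printed promoter. In both genes the labelled Fat1 cKO Epcam+ library was at least 2-fold below the labelled control Epcam+ library, by 2.69-fold for Hoxd3 (log2 ratio -1.43, -1.97 to -0.98) and 2.51-fold for Hoxd1 (-1.33, -2.57 to -0.45). Hoxd3 was split among its regions. The region from 74753053 to 74754068, 5289 bp outside the gene body, held 51, 12 and 16 counts, high only in the labelled control Epcam+ library, while the region at the Hoxd3 promoter window held 19, 6 and 29.

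Of the posterior Hoxd genes, which pattern limbs, Hoxd9 and Hoxd11 had enough counts to compare. Hoxd9 had 36, 11 and 62 counts in 2 regions, 1 overlapping its printed promoter and 1 just inside the gene body. Its level in the labelled Fat1 cKO Epcam+ library was 2.44-fold lower than the labelled control Epcam+ library (log2 ratio -1.29, -2.53 to -0.40), and the labelled Fat1 cKO Epcam- library was 3.40-fold above it (1.76, 0.97 to 2.98). Between the labelled Fat1 cKO Epcam- and the labelled control Epcam+ library, Hoxd9 was within counting error (0.48, -0.12 to 1.13). The difference between the libraries labelled Epcam+ lay in the region inside the gene body, 74697795 to 74698612, with 33, 6 and 42 counts. The smaller region before it, 74697337 to 74697664, held 3, 5 and 20. Hoxd11 had 28, 19 and 97 counts in the 1 region that holds the printed promoter with both homeodomain motifs. Here only the labelled Fat1 cKO Epcam- library was high, 3.21-fold over the labelled Fat1 cKO Epcam+ library (1.68, 1.04 to 2.56) and 2.72-fold over the labelled control Epcam+ library (1.44, 0.89 to 2.17). The authors called a peak in this region only in the labelled control Epcam+ library, which had 28 counts. Hoxd13, the digit and genital gene, held 11, 3 and 19 counts, too few for the size rule of 20.

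**Figure D1:**
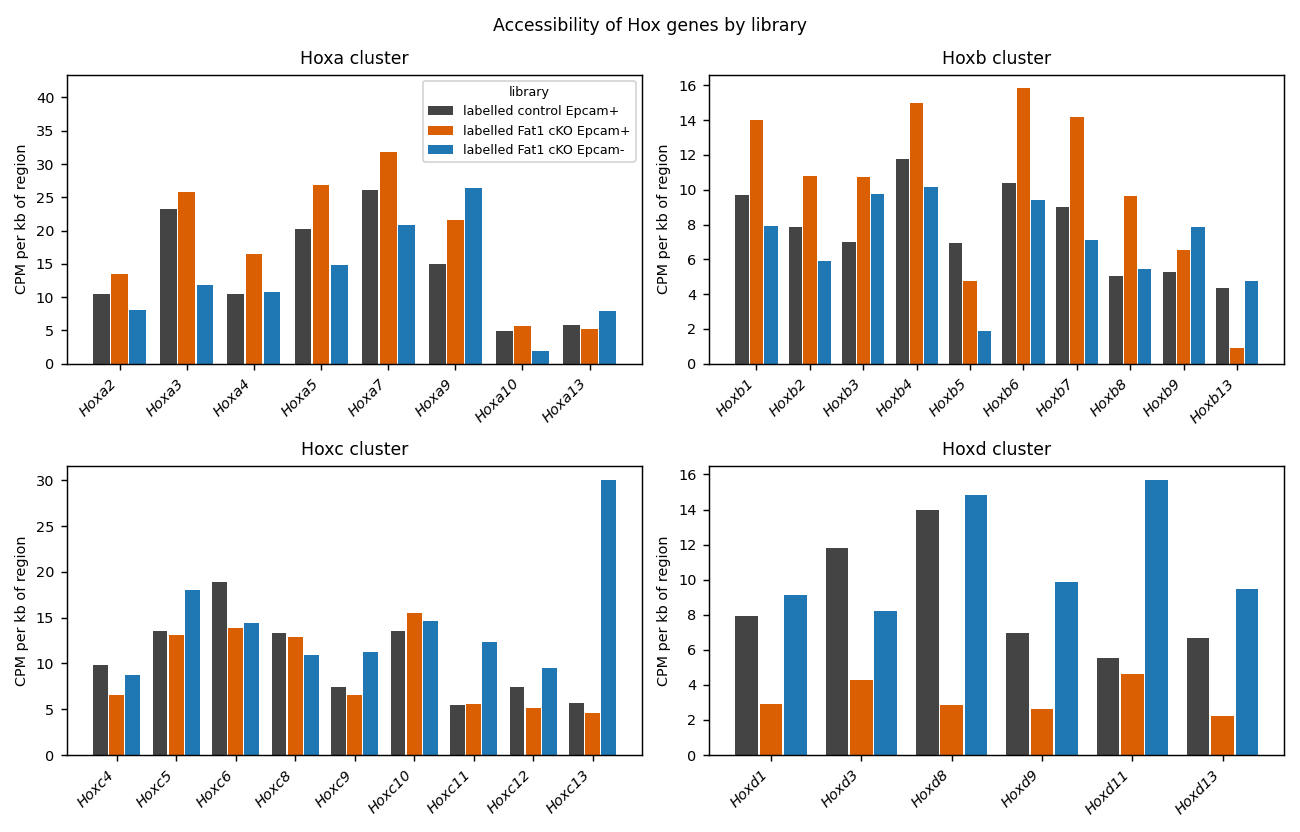
Accessibility of the 33 Hox genes with a region, as CPM per kb of assigned region (y axis, linear from 0) for each gene (x axis, in paralog order), with 1 bar per library. In the Hoxd panel the Fat1 cKO Epcam+ bar is the lowest for all 6 genes, and in the Hoxc panel the Fat1 cKO Epcam- bar of Hoxc13 stands at 30.1.

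The Hoxc cluster of the labelled Fat1 cKO Epcam- library differed from both others mainly at its posterior end, most of all at Hoxc13. The cluster runs on chromosome 15 from Hoxc13 (gene start 102921131) to Hoxc4 (gene end 103036856), and its 20 regions, some of them beyond these ends, summed to 950, 606 and 1366 counts, or 211, 166 and 248 CPM. The labelled Fat1 cKO Epcam+ library was the lowest, with a log2 ratio to the labelled control Epcam+ library of -0.35 (-0.50 to -0.20), and the labelled Fat1 cKO Epcam- library stood above it by 0.58 (0.44 to 0.72). Between the libraries labelled Epcam+ the ratio was -0.39 (-0.56 to -0.23) for central and -0.14 (-0.49 to 0.21) for posterior Hoxc genes. Hoxc13, which drives hair keratin genes, had 1 region, from 102920431 to 102922341 across the gene start, with 49, 32 and 316 counts. Its level in the labelled Fat1 cKO Epcam- library was 6.30-fold above the labelled Fat1 cKO Epcam+ library (log2 ratio 2.66, 2.19 to 3.29) and 5.12-fold above the labelled control Epcam+ library (2.36, 1.96 to 2.87). The other 2 libraries were not apart beyond counting error (-0.30, -1.003 to 0.36). No Hox gene differed more in either comparison with the labelled Fat1 cKO Epcam- library among those with 20 counts in 1 of the 2 libraries.

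Hoxc11, a hindlimb gene, followed at a lower level, with 11, 9 and 30 counts in 1 region. It passed 2-fold only just, at 2.03-fold over the labelled Fat1 cKO Epcam+ library (log2 ratio 1.02, 0.04 to 2.41) and 2.05-fold over the labelled control Epcam+ library (1.03, 0.12 to 2.31), and the second was under 2-fold with total-count scaling, at 0.99, with DESeq2 size factors, at 0.998, and with the chromosome median set to 0, at 0.93. Hoxc12 held 18, 10 and 28 counts, Hoxc9 45, 32 and 83, and Hoxc10 41, 38 and 54, all highest in the labelled Fat1 cKO Epcam- library by counts. Scaled, Hoxc10, a lumbar gene, was nearly level at 9.09, 10.4 and 9.82 CPM.

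Central Hoxc genes held most of the cluster's counts in each library, and none of the 4 was 2-fold apart in any comparison. Hoxc6, a thoracic gene, had the highest level per kb of the cluster in the labelled control Epcam+ library, with 380, 227 and 353 counts in 6 regions, or 18.9, 13.9 and 14.4 CPM per kb. Its level was highest in the labelled control Epcam+ library, with a log2 ratio of the labelled Fat1 cKO Epcam+ library to it of -0.44 (-0.69 to -0.20). One of its regions, from 103008133 to 103008509, held 20, 2 and 6 counts and was called as a peak in no library. Hoxc4 held 247, 133 and 267 counts in 5 regions. A region 24160 bp outside its body, from 103060434 to 103061599, held 32, 4 and 64 counts, and was 7.88-fold higher in the labelled Fat1 cKO Epcam- than in the labelled Fat1 cKO Epcam+ library (log2 ratio 2.98, 1.99 to 5.33). The region on the printed Hoxc4 promoter ran another way, with 77, 40 and 43 counts.

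Hoxc5 had 1 region, from 103013944 to 103015946, with 122, 96 and 198 counts. This region also holds the microRNA gene Mir615, and it was the only one of the regions nearest to 6 Hox cluster microRNA genes (Mir10a, Mir10b, Mir196a-1, Mir196a-2, Mir196b and Mir615) that contained the mature sequences. The mature microRNAs are shown with the seed, bases 2 to 8, in capitals, from RefSeq.
mmu-miR-615-5p, chr15:103014926-103014947, plus strand: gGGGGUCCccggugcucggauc
mmu-miR-615-3p, chr15:103014969-103014990, plus strand: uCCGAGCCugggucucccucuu

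In the Hoxa cluster the labelled Fat1 cKO Epcam- library was low at regions assigned to anterior genes and high at those assigned to posterior genes. On chromosome 6 its members with a region run from Hoxa2 (gene start 52162417) to Hoxa13 (gene end 52260880), and their 20 regions, some of them beyond these ends, summed to 1195, 1174 and 1102 counts, or 265, 321 and 200.4 CPM. The log2 ratio of the labelled Fat1 cKO Epcam- to the labelled Fat1 cKO Epcam+ library was -0.68 (-0.80 to -0.56), an order opposite to that of Hoxc and Hoxd. Hoxa3, needed for the thymus and parathyroid glands, took 53.3% of the cluster's counts in the labelled control Epcam+ library, with 637, 573 and 395 counts in 8 regions. Its body, 52169059 to 52213067, spans those of Hoxa4, Hoxa5 and Hoxa6, so part of these anterior counts lies among central genes. Hoxa3 was 2.17-fold lower in the labelled Fat1 cKO Epcam- library than in the labelled Fat1 cKO Epcam+ library (log2 ratio -1.12, -1.31 to -0.94), and just under 2-fold below the labelled control Epcam+ library (-0.97, -1.16 to -0.79). The largest difference among the Hoxa3 regions lay at 52177011 to 52177472, with 64, 60 and 20 counts. The region on the printed Hoxa3 promoter, from 52212547 to 52213563, held 152, 136 and 72, and that on the printed Hoxa6 promoter 62, 68 and 34. One region, from 52184797 to 52185688, was instead high only in the labelled control Epcam+ library, with 69, 32 and 34.

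Other anterior and central Hoxa genes were also lower in the labelled Fat1 cKO Epcam- than in the labelled Fat1 cKO Epcam+ library, each by under 2-fold. Hoxa2, which patterns the hindbrain and the middle ear, had 57, 60 and 54 counts. Hoxa5, a lung gene, had 135, 145 and 120 in the region on the printed promoter, and Hoxa4 had 92, 117 and 115 in the region from 52190645 to 52192590. Hoxa7, the most accessible Hoxa gene per kb by the mean of the 3 libraries, had 109, 108 and 106 counts in 1 region. Its level per kb was 26.0, 31.8 and 20.8 CPM. Their log2 ratios of the labelled Fat1 cKO Epcam- to the labelled Fat1 cKO Epcam+ library lay between -0.85 for Hoxa5 and -0.60 for Hoxa4 and Hoxa7.

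Posterior Hoxa genes did not follow them. Hoxa9, known from myeloid leukaemia, had 109, 127 and 234 counts in 2 regions, and was highest in the labelled Fat1 cKO Epcam- library. There it stood above Hoxa7 per kb, at 26.4 CPM per kb. It was 1.75-fold over the labelled control Epcam+ library (log2 ratio 0.80, 0.48 to 1.16) and 1.22-fold over the labelled Fat1 cKO Epcam+ library (0.29, -0.02 to 0.62), a difference within counting error. Hoxa13, of the distal limb, had 43, 32 and 72 counts in 4 regions, highest in the labelled Fat1 cKO Epcam- library. Its log2 ratios there were within counting error. They were 0.44 (-0.11 to 1.04) over the labelled control Epcam+ and 0.56 (-0.04 to 1.23) over the labelled Fat1 cKO Epcam+ library. Hoxa10, of the uterus and hindlimb, had 13, 12 and 6, too few for the size rule.

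The Hoxb cluster was highest in the labelled Fat1 cKO Epcam+ library. The cluster runs on chromosome 11 from Hoxb13 (gene start 96194316) to Hoxb1 (gene end 96368254), and its 31 regions, some of them beyond these ends, summed to 946, 1098 and 1190 counts, or 209.8, 300.2 and 216 CPM. The log2 ratio of the labelled Fat1 cKO Epcam+ to the labelled control Epcam+ library was 0.52 (0.39 to 0.64), and that of the labelled Fat1 cKO Epcam- to the labelled Fat1 cKO Epcam+ library was -0.47 (-0.59 to -0.35). For 7 of the 10 Hoxb genes with a region that library had the highest CPM, and none of the 8 measured Hoxb genes was 2-fold apart in any comparison. Hoxb4, which expands blood stem cells, was the most accessible per kb by the mean of the 3 libraries. It had 112, 116 and 118 counts in the region on the printed promoter, or 11.7, 14.997 and 10.1 CPM per kb. Hoxb6 stood above it in the labelled Fat1 cKO Epcam+ library, at 15.8 CPM per kb. Hoxb7 (77, 98 and 74 counts) came closest to 2-fold, with a log2 ratio of the labelled Fat1 cKO Epcam- to the labelled Fat1 cKO Epcam+ library of -0.97 (-1.45 to -0.54). Hoxb2 had 52, 58 and 48 counts, Hoxb6 120, 148 and 132, and Hoxb8 39, 60 and 51. Within Hoxb6, the region from 96291817 to 96293078 held 34, 73 and 35 counts, high only in the labelled Fat1 cKO Epcam+ library (log2 ratio to the labelled control Epcam+ library 1.35, 0.80 to 2.04). Hoxb9, a posterior gene of the rib cage, had 135, 136 and 246 counts and was highest in the labelled Fat1 cKO Epcam- library. Its log2 ratio there was 0.57 (0.27 to 0.89) over the labelled control Epcam+ library. Over the labelled Fat1 cKO Epcam+ library it was 0.26 (-0.04 to 0.58), within counting error. Hoxb5 and Hoxb13 held under 10 counts in each library.

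Hoxb1, which specifies a hindbrain segment, summed to 232, 271 and 230 counts, but its regions moved in different directions. The region inside the gene body, from 96366135 to 96367103, held 20, 44 and 81 counts, and that 15469 bp away, from 96383570 to 96383877, held 6, 13 and 29. Both were highest in the labelled Fat1 cKO Epcam- library. Further out the order turned. The region from 96407536 to 96408891, 39959 bp away, held 54, 63 and 19 counts, and that from 96413188 to 96414327, 45503 bp away, held 103, 112 and 52, both lowest in that library. The log2 ratio of the labelled Fat1 cKO Epcam- to the labelled control Epcam+ library was -0.30 (-0.57 to -0.03) over all 5 regions and turned to 1.64 with the 1 region within 10 kb of the gene. Hoxb3 had a similar split, with 164, 205 and 280 counts in 8 regions, of which the one from 96344424 to 96345067 held 15, 17 and 65. The most distant region within the 50 kb limit was the Hoxb1 one at 45503 bp. Just outside it were 2 regions: 1 at 56688 bp from Hoxc4 with 5, 4 and 19 counts, and 1 at 81488 bp from Hoxc13 with 25, 23 and 90.

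**Figure D2:**
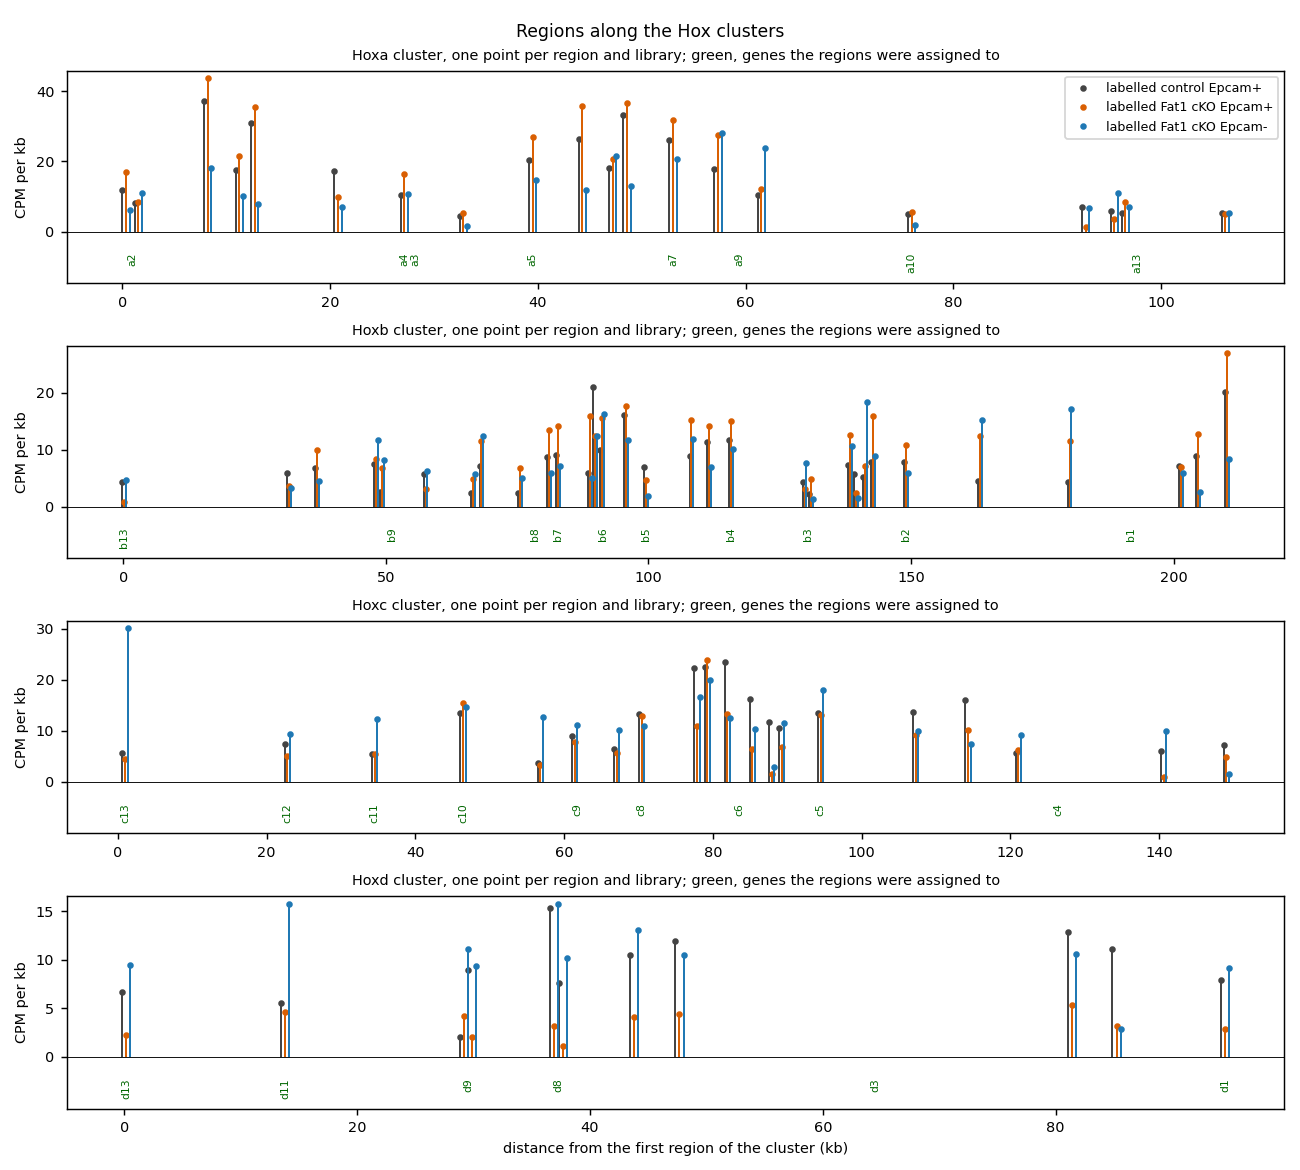
CPM per kb of each of the 82 regions (y axis) against the distance from the first region of its cluster in kb (x axis), 1 point and stem per library, offset slightly so that they can be told apart. The Hoxa panel shows the Fat1 cKO Epcam- points lowest over most Hoxa3 regions and highest at Hoxa9, and the Hoxc panel shows the single Hoxc13 region.

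Summed over the 82 regions the clusters offset each other, with 3444, 2982 and 4131 counts, or 764, 815 and 751 CPM. Set against all genes, the Hox genes apart in the first comparison, by its labels of Fat1-deleted with control tumour cells sorted as Epcam+, all belonged to the Hoxd cluster. By the size rule a gene counts as apart when its ratio reaches 2-fold and either library holds 20 counts or more. In the labelled Fat1 cKO Epcam+ over the labelled control Epcam+ library, 4 of 27 measured Hox genes were lower (Hoxd1, Hoxd3, Hoxd8 and Hoxd9), against 4.31% of all 15286 measured genes. None was higher, against 7.21% of all genes. The median log2 ratio was 0.18 over the Hox genes and 0.05 over all genes. Among single regions, 9 of 55 were lower and 3 higher, against 16.3% and 18.8% of all regions. By region the share lower was thus at the background, and the share higher below it.

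The second comparison, by its labels of Epcam- with Epcam+ cells of Fat1-deleted tumours, put the labelled Fat1 cKO Epcam- over the labelled Fat1 cKO Epcam+ library. Of 29 measured Hox genes 6 were higher, namely Hoxc11, Hoxc13, Hoxd1, Hoxd8, Hoxd9 and Hoxd11, against 9.48% of all 15731 measured genes. Hoxa3 was the 1 lower, against 6.31%. The median was 0.05 over the Hox genes and 0.00 over all genes. Of 64 measured regions 13 were higher and 10 lower, against 25.0% and 17.5% of all regions, so that by region neither share exceeded the background. This comparison shares a library with each of the others, so the entries of Hoxd1, Hoxd8 and Hoxd9 in this and the preceding list rest in part on the same counts.

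In the third comparison, the labelled Fat1 cKO Epcam- over the labelled control Epcam+ library, 3 of 29 Hox genes were higher (Hoxc11, Hoxc13 and Hoxd11, all posterior), against 12.5% of all 15812 measured genes, and 0 were lower, against 6.15%. The median log2 ratio was 0.08 over the Hox genes and 0.07 over all genes. Of 67 measured regions 10 were higher and 10 lower, against 28.4% and 19.3% of all regions.

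**Figure D3:**
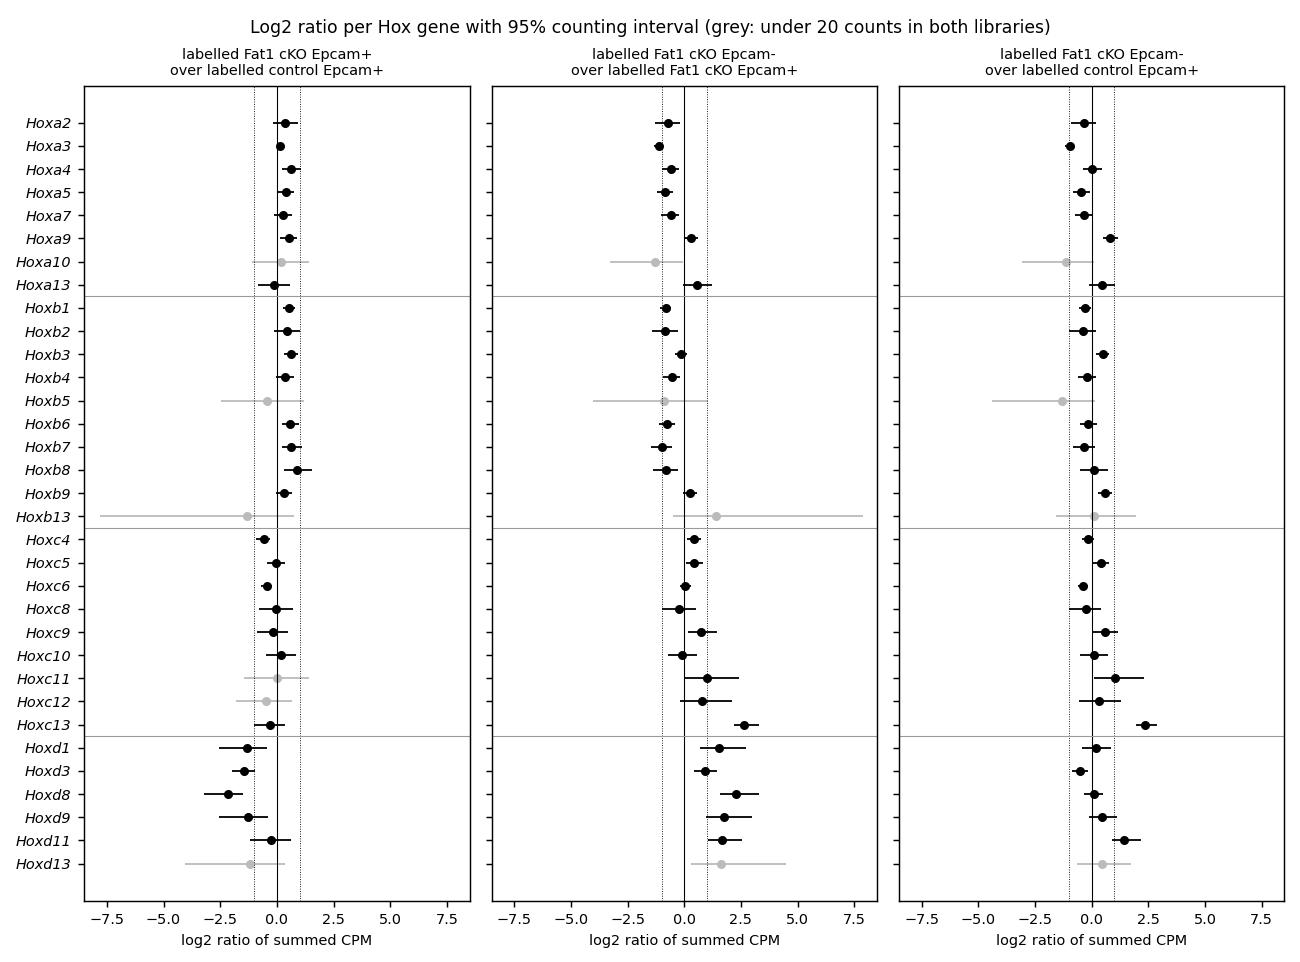
Log2 ratio of summed CPM for each Hox gene (x axis) in each pair of libraries, with its 95% counting interval as a line; dotted lines mark 2-fold and grey points are genes with under 20 counts in both libraries. Hoxd points lie left of 0 in the first panel and right of 0 in the second, and Hoxc13 lies at 2.66 and 2.36 in the second and the third.

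Within each library, the share of a cluster's counts that lay at posterior genes does not depend on scaling between libraries. In the labelled Fat1 cKO Epcam- library it was 28.3% of Hoxa counts (95% Clopper-Pearson interval 25.7 to 31.1), 21.3% of Hoxb counts (19.0 to 23.8), 37.4% of Hoxc counts (34.8 to 40.0) and 37.6% of Hoxd counts (33.2 to 42.2). In the labelled control Epcam+ library the same shares were 13.8% (11.9 to 15.9), 14.9% (12.7 to 17.3), 17.3% (14.9 to 19.8) and 21.2% (17.1 to 25.9). In all 4 clusters the first library was above the second with intervals that did not overlap. The Hoxb shares rest in part on 3 regions 36647 to 45503 bp outside Hoxb1, counted as anterior and lowest in CPM in the first library. Shares without these regions were not computed. In the labelled Fat1 cKO Epcam+ library the posterior shares were 14.6% (12.6 to 16.7), 12.5% (10.6 to 14.6) and 19.97% (16.9 to 23.4) in Hoxa, Hoxb and Hoxc, close to the labelled control Epcam+ library. In Hoxd its 31.7% rested on 104 counts (22.9 to 41.6), and its interval overlapped both others.

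Over all clusters together, posterior genes summed to 545, 462 and 1255 counts, or 121, 126 and 228 CPM, and anterior genes to 1335, 1224 and 1192 counts, or 296, 335 and 217 CPM. Posterior accessibility in the labelled Fat1 cKO Epcam- library was 1.88-fold above the labelled control Epcam+ library (log2 ratio 0.91, 0.77 to 1.06), and anterior accessibility 1.37-fold below it (-0.45, -0.56 to -0.34). Most of the anterior difference lay in Hoxa3, at 141.3 CPM in the labelled control Epcam+ and 71.8 CPM in the labelled Fat1 cKO Epcam- library. Part of the Hoxa3 regions lie among central genes. Anterior Hoxb genes were level as a sum (0.03, -0.15 to 0.21). That sum includes 3 regions 36647 to 45503 bp outside Hoxb1, each with its lowest CPM in the labelled Fat1 cKO Epcam- library. The region inside the Hoxb1 body had a log2 ratio of 1.64. Much of the posterior count also came from 1 gene per cluster. Without Hoxa9 the posterior share of Hoxa was 5.16%, 4.20% and 8.99% in the libraries in the order above, and without Hoxc13 that of Hoxc was 12.8%, 15.5% and 18.6%. In both, the labelled Fat1 cKO Epcam- library stayed above the labelled control Epcam+ library with intervals that did not overlap. For Hoxc its interval (16.3 to 21.1) did overlap that of the labelled Fat1 cKO Epcam+ library (12.6 to 18.7). Without Hoxd11 the posterior share of Hoxd was 14.5%, 16.5% and 21.5%, with overlapping intervals between the labelled control Epcam+ (10.8 to 18.8) and labelled Fat1 cKO Epcam- (17.5 to 26.0) libraries. Without Hoxb9 that of Hoxb was under 1% in each library.

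**Figure D4:**
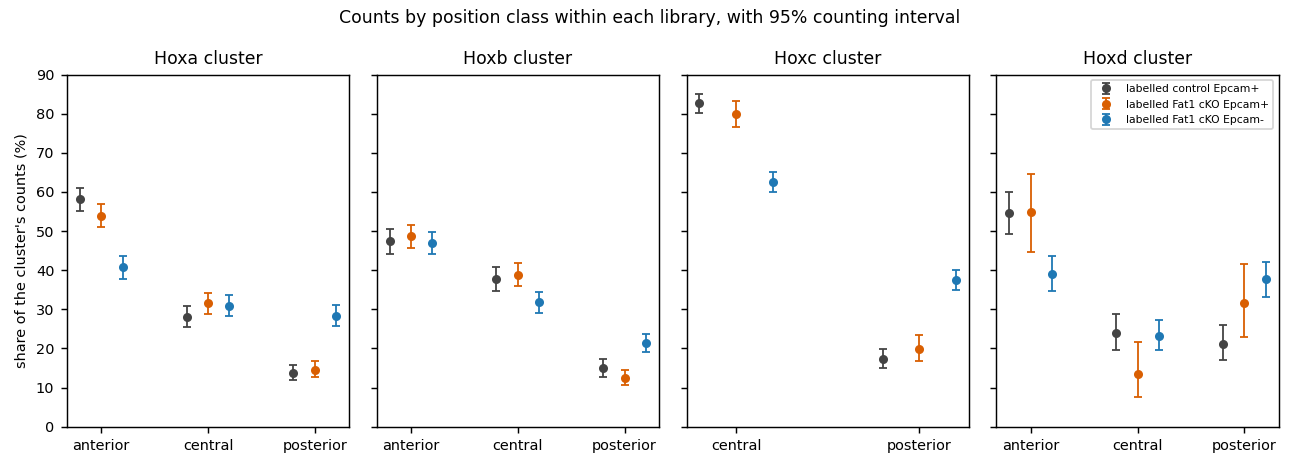
Share of each cluster's counts (y axis, percent) at anterior, central and posterior genes (x axis) within each library; bars are 95% Clopper-Pearson intervals of counting error, and Hoxc has no anterior member here. The Fat1 cKO Epcam- point is the highest at the posterior class in all 4 panels.

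By summed counts, the regions around the clusters had ratios close to those of Hoxa and Hoxb, and ratios apart from those of Hoxc and Hoxd. Surrounding regions were those within 1 Mb of either end of a cluster and not assigned to a member, 104 for Hoxa, 138 for Hoxb, 147 for Hoxc and 76 for Hoxd. For the labelled Fat1 cKO Epcam- over the labelled Fat1 cKO Epcam+ library, the log2 ratio of Hoxa was -0.68 and that of its surroundings -0.81, and for Hoxb the values were -0.47 and -0.54. The differences of cluster from surroundings were 0.13 (0.00 to 0.27) and 0.07 (-0.05 to 0.20). Hoxc stood at 0.58 against -0.47, a difference of 1.06 (0.91 to 1.20), and Hoxd at 1.58 against 0.63, a difference of 0.95 (0.64 to 1.27). By the median of measured regions Hoxd was nearer its surroundings, at 1.49 over 8 regions against 1.08 over 42. For Hoxc these medians were 0.51 over 16 regions and -0.34 over 107.

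The first comparison gave the same arrangement. For the labelled Fat1 cKO Epcam+ over the labelled control Epcam+ library, Hoxa was at 0.28 against 0.35 for its surroundings and Hoxb at 0.52 against 0.50. Hoxc was at -0.35 against 0.29, a difference of -0.64 (-0.79 to -0.49), and Hoxd at -1.45 against -0.25, a difference of -1.20 (-1.52 to -0.87). By the median of measured regions Hoxd was again nearer its surroundings, at -1.33 over 7 regions against -0.56 over 29. In the comparison of the labelled Fat1 cKO Epcam- with the labelled control Epcam+ library, Hoxc exceeded its surroundings by 0.42 (0.29 to 0.54) and Hoxd was below its own by 0.24, written as -0.24 (-0.45 to -0.03). Whole chromosomes also differed between the libraries. The median log2 ratio of all chromosome 2 regions was 0.55 in the second comparison and that of chromosome 6 was -0.32, and with each chromosome's median set to 0 the Hoxd ratio was 1.03 in place of 1.58 and that of Hoxa3 -0.80 in place of -1.12.

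**Figure D5:**
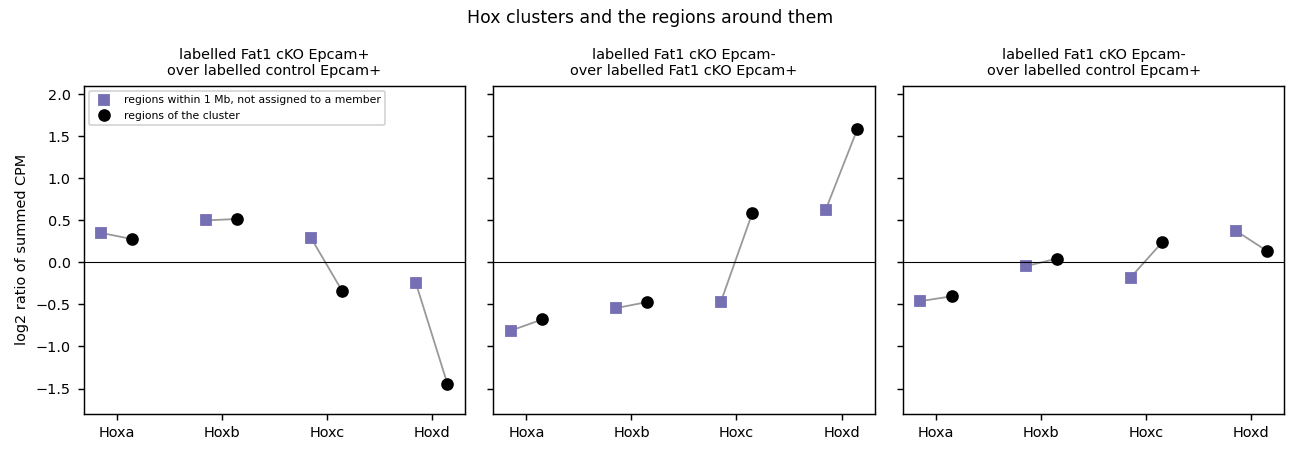
Log2 ratio of summed CPM (y axis) of each Hox cluster (circles) and of the regions within 1 Mb around it (squares) in each pair of libraries, joined by a line. Hoxa and Hoxb circles lie beside their squares, and those of Hoxc and Hoxd lie apart in the first 2 panels.

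Genes that work with the Hox proteins were read from lists. Of 9 genes for the Pbx, Meis and Pknox cofactors, which bind DNA with Hox proteins, all were measured. Meis2 had 82.7, 37.7 and 137 CPM, lowest in the labelled Fat1 cKO Epcam+ library as the Hoxd genes were, with log2 ratios of -1.12 in the first comparison and 1.85 in the second. It was the 1 cofactor gene 2-fold lower in the first comparison, against 4.31% of all genes, and Meis2 and Pknox2 (91.4, 56.9 and 121 CPM) were the 2 higher in the second, against 9.48%. Meis3 was the 1 lower in the third, against 6.15%, at 9.98, 7.66 and 3.64 CPM on 1 region. The list's medians were 0.15, -0.26 and 0.11 in the 3 comparisons.

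Regulators of Hox clusters (Polycomb and Trithorax group genes, Cdx genes and Ctcf) numbered 18, of which 17 were measured. In the first comparison 2 were higher, against 7.21% of all genes, namely Cbx2 (28.8, 77.4 and 35.6 CPM), a Polycomb subunit, and Cdx2 (16.6, 36.1 and 33.3 CPM). In the second the 2 lower were Cbx2 and Cdx4, against 6.31%, and in the third Cdx4 (7.10, 5.47 and 0.73 CPM, on 1 region) was the 1 lower, against 6.15%. The medians were 0.23, -0.35 and -0.02. Of 16 genes that flank the clusters, 15 had a region. In the first comparison 0 of 15 were higher and 1 was lower, against 7.21% and 4.31% of all genes. In the second 3 of 15 were higher and 2 lower, against 9.48% and 6.31%. In the third 0 of 14 were higher and 2 lower, against 12.5% and 6.15%. Flanking genes on the Hoxd side were lowest in the labelled Fat1 cKO Epcam+ library, as the Hoxd genes were, with Mtx2 at 45.03, 21.1 and 53.8 CPM and Lnpk at 60.8, 41.3 and 85.3 CPM. Skap2 beside Hoxa (117, 165 and 56.9 CPM) and Skap1 beside Hoxb (43.5, 74.9 and 17.6 CPM) were at least 2-fold lower in the labelled Fat1 cKO Epcam- library than in both others, and Evx1, the homeobox gene beyond Hoxa13, was 2-fold higher there than in the labelled Fat1 cKO Epcam+ library (6.65, 3.83 and 10.0 CPM).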

How the data were processed

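The study's ATAC-seq libraries, 1 for each of 3 groups, were compared through the table of raw counts that the authors deposited, which covers 95842 merged regions and also gives a peak call for every library. Per the submitters' processing notes, which name no role or order, the tools were Bowtie2 2.2.6, SAMtools, Picard and MACS2 2.1.0.20151222, and the genome was mm10 (GRCm38). For the counting tool, filters, any Tn5 shift and the peak threshold, the sources give nothing. Per the labels' protocols, 100000 sorted cells were tagmented and fragments of 200 to 800 bp selected.

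Columns were assigned to libraries by their titles, and the 2 mitochondrial regions were left out. TMM factors came from edgeR 4.0.16 in R 4.3.3. Log2 ratios were computed in Python 3.11.15 from summed counts, with 2 counts added before the logarithm in proportion to library size, as edgeR does. Regions were assigned with a RefSeq table of GRCm38 gene bodies, which holds no exons, and 3 Hox regions lying in 2 bodies went to the shorter one. Intervals of ratios and shares are 95% Clopper-Pearson intervals, and those of a difference between log2 ratios are normal approximations. No label mentions molecular identifiers, and PCR copies of 1 molecule are not independent, which can make these intervals narrower than they should be.

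Genes 2-fold apart with at least 20 counts were given in full. So were the gene with the highest mean CPM per kb in each cluster, and genes of the 2 most differing regions per cluster and pair. Promoter windows run from 250 bases before to 50 after the start, and motifs were counted in the 250 bases before it. The calculation was tested on simulated data with counting error only. Planted changes were larger than 2-fold and in genes expected well above 20 counts, so recovery of changes near these limits was not tested. Members and lists were chosen with earlier results of these data known. Alternatives covered scaling, distance, peak calls and count minimums, with DESeq2 1.42.0 for size factors.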

Additional observations from a re-analysis of the deposited data

How the results depend on the processing

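Under the alternatives, 73 cluster ratios stayed within the counting interval of the reported value and 11 did not, and 82 kept its sign and 2 did not. For the named genes, 316 ratios stayed within the interval and 17 did not, and 319 kept the sign and 14 did not. With each chromosome's median set to 0, the log2 ratio was 0.27 for Hoxb in the labelled Fat1 cKO Epcam+ over the labelled control Epcam+ library. In the labelled Fat1 cKO Epcam- over the labelled Fat1 cKO Epcam+ library it was -0.36 for Hoxa, -0.24 for Hoxb and 1.03 for Hoxd, and 0 Hox genes were lower. In the labelled Fat1 cKO Epcam- over the labelled control Epcam+ library it was -0.14 for Hoxa and -0.32 for Hoxd, whose reported value was 0.13. With regions whose midpoint lay inside a gene body, an alternative chosen after seeing the data, the values were -0.35 for Hoxb in the second comparison, and -0.55 for Hoxa, 0.19 for Hoxb and 0.39 for Hoxd in the last. This setting gave 1 gene higher in the first comparison in place of 0, 2 lower in the second in place of 1, and 5 higher in the last in place of 3. Within 10 kb of a gene, Hoxb was at 0.21 in the last comparison and 1 gene was higher in the first. A minimum of 10 counts gave 2 genes lower in the second comparison and 1 in the last, and no minimum gave 2 and 2. Total counts and DESeq2 size factors each gave 1 gene lower in the last comparison in place of 0. Beyond these settings, the counts of genes stayed within 1.5 times those reported. The cause of these differences was not tested. No paired analysis was possible because each group has 1 library and no test was made, and no library could be left out. Genes with under 20 counts, such as Hoxb5, Hoxb13, Hoxd13 and Hoxa10, are too shallow to compare.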

Other observations

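Other genes that mark body position, namely homeobox genes, T-box genes and Hand2, were compared in the same way. The list held 12 genes, of which 11 had a region. In the labelled Fat1 cKO Epcam- over the labelled control Epcam+ library 6 of the 11 measured genes were at least 2-fold higher, against 12.5% of all genes, and 1 was lower, against 6.15%. The median log2 ratio of the list was 1.11 there, against 0.07 over all genes.

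Msx2, which acts in hair follicles and limb buds, had 19.96 CPM in the labelled control Epcam+ library, 18.0 CPM in the labelled Fat1 cKO Epcam+ library and 75.6 CPM in the labelled Fat1 cKO Epcam- library. It was high in the same library as Hoxc13, with log2 ratios of 2.04 and 1.90 over the others. Alx4 and Hand2 were high in that library too, but on 40 and 24 counts. Pitx1, which specifies the hindlimb, had 8.87, 32.0 and 34.4 CPM, and Lmx1b, of the dorsal limb, had 29.9, 79.8 and 75.1 CPM. Both were low only in the labelled control Epcam+ library, a pattern that no Hox gene summed over regions within 50 kb showed past the size rule, and that the region inside the Hoxb1 body did, with 20, 44 and 81 counts. Prrx1, a mesenchymal gene also counted among the fibroblast markers, had 98.0, 43.2 and 30.7 CPM and was the 1 lower. En1, which marks ventral skin, had 16.9, 10.1 and 28.9 CPM and was lowest in the labelled Fat1 cKO Epcam+ library, as the Hoxd genes were.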
